A study of Peromyscus maniculatus with 6 samples.

Results

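The genes described here serve protein entry into the endoplasmic reticulum (ER): the signal recognition particle (SRP) and its receptor, the Sec61 channel and its partners, the translocon-associated protein complex (TRAP), signal peptidase, the pathway for tail-anchored proteins, and the ER membrane protein complex (EMC). They were chosen by symbol from a list of 41 names. The deposited table names 33 of them among its 24281 genes, each on a single gene ID, and all 33 passed the filter on low counts that left 13503 genes. The other 8 symbols (Srp14, Srp19, Srp54, Srp54a, Srprb, Sec61b, Ssr3 and Emc3) were not analysed here.

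RNA came from primary ear fibroblasts of 3 deer mice of the BW stock (Peromyscus maniculatus), 4 weeks old, named BW35770, BW35772 and BW35773. For each animal there is 1 control library and 1 library from cells treated with tunicamycin for 5 h, so each treated library has a control from the same animal. Cells had been plated at 300000 per well 24 h earlier. The concentration is labelled 5 mg per mL, a value that could not be checked here, and what the control wells received was not given in the sources used here. Tunicamycin stops cells from building N-glycans and so causes ER stress.

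Most secreted and membrane proteins carry a signal sequence that SRP binds as it leaves the ribosome. SRP docks on its receptor and hands the ribosome to the Sec61 channel, where TRAP assists entry and signal peptidase removes the signal peptide. Tail-anchored proteins, whose only membrane segment lies at the end of the chain, are instead delivered after synthesis by the GET pathway or inserted by the EMC. Under ER stress XBP1, the transcription factor made through IRE1, is known to induce many genes of this machinery.

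After 5 h of tunicamycin, of 33 members 0 rose and 0 fell (edgeR quasi-likelihood test, 3 tunicamycin against 3 control libraries, Benjamini-Hochberg adjusted p under 0.05 over all genes), where 1.78% of all tested genes rose and 0.792% fell. Without adjustment, edgeR gave p under 0.05 to 3 members that were higher and 2 that were lower, where 8.88% of all tested genes were higher and 6.64% lower by that rule. DESeq2 called 0 members higher and 1 lower (4.93% and 2.88% of all tested genes), and limma-voom called 0 higher and 0 lower (1.61% and 0.77%). With the animal as a block, which compares each treated library with the control of its own animal (the replicate block), Sec61g alone was called lower. That is 1 of 33 members, beside 2.4% of all tested genes called lower and 3.07% called higher in the same fit. The median log2 fold change was -0.033 over the members and -0.010 over all tested genes. The 95% interval of the fold change (from its standard error, not adjusted) lay within 2-fold in either direction for 30 of 33 members and within 1.5-fold for 21. Over all tested genes these shares were 63.8% and 30.7%. The exceptions at 2-fold were Sec61g, Tram2 and Ubl4a. In bulk RNA a lower level in each cell and fewer cells with the transcript cannot be told apart.

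The members held 0.455 to 0.516% of the counts of each library, and single members had 71 to 35360 counts. Libraries held 37852385 to 49352126 counts on genes. Fibroblast markers were detected in all 6 libraries at unequal levels. Vim stood at 7494 to 9763 CPM (counts scaled to the TMM-normalised library size) and Col1a1 at 1107 to 3570 CPM. Pdgfra stood at 165 to 401 CPM, Lum at 81.7 to 175 CPM and Thy1 at 58.0 to 827 CPM. The summed level of 8 fibroblast markers was 15063 to 21314 CPM in controls and 15473 to 20450 CPM with tunicamycin. The 6 chondrocyte markers summed to between 1867 and 2072 CPM in the libraries of BW35770 and between 6125 and 8877 CPM in the other animals. Over the 6 libraries Col2a1 stood at 743 to 6260 CPM, Acan at 836 to 2113 CPM and Sox9 at 209 to 309 CPM. Col9a1 stood at 28.6 to 189 CPM and Comp at 16.6 to 106 CPM, and Matn1 was under 1 CPM throughout. Of 5 keratinocyte markers 4 stayed under 1 CPM in every library, and the list summed to 4.78 to 23.0 CPM in controls and 2.65 to 13.1 CPM with tunicamycin, mostly from Krt14 (2.23 to 22.7 CPM). Of 4 endothelial markers 3 stayed under 1 CPM, and the sums were 1.37 to 4.68 and 0.873 to 4.01 CPM, mostly from Pecam1 (0.785 to 4.63 CPM). Of 4 immune markers 3 stayed under 1 CPM, with Cd3e at 0 throughout, and the sums were 86.3 to 175.2 and 68.7 to 153.0 CPM, nearly all from Cd68 (68.6 to 175.2 CPM). All 5 melanocyte markers stayed under 1 CPM, with sums of 0.137 to 0.926 and 0.115 to 0.673 CPM. Of 5 muscle markers 4 stayed under 1 CPM, and the sums were 17.9 to 23.5 and 14.9 to 17.7 CPM, mostly from Acta1 (14.3 to 22.9 CPM). The part of these cells in the results was not tested.

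The Sec61 channel held the largest difference among the members. Sec61g encodes the gamma subunit, a small protein with a single membrane segment (ENSPEMG00000020941, scaffold KI615810.1, bases 54869 to 61327, plus strand, 4 exon intervals, 573 exon bases). Its level in animals BW35770, BW35772 and BW35773 was 150.4, 145.0 and 140.5 CPM in controls and 58.8, 56.4 and 108.8 CPM with tunicamycin. The groups did not overlap, and the treated library of BW35773 lay between its control and the other treated libraries. The log2 fold change was -0.96 ± 0.25 (SE, edgeR adjusted p = 0.111). Pairing by the replicate block gave -1.03 ± 0.21 and a call (edgeR adjusted p = 0.0347). Over 21 alternative settings the adjusted p ran from 0.0013 to 0.53, and the log2 fold change was negative in each, from -1.33 to -0.78. Without the treated library of BW35773 the unblocked value was -1.31 (edgeR adjusted p = 0.0053). Without animal BW35770 the blocked fit gave -0.86 and no call (edgeR adjusted p = 0.29).

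Sec61a1 encodes the alpha subunit that forms the pore (scaffold KI616326.1, bases 35682 to 52683, minus strand, 3373 exon bases). It stood at 444.9, 562.2 and 485.4 CPM in controls and 533.9, 676.8 and 637.8 CPM with tunicamycin, in the same order of animals. Each treated library was above its own control, but the groups overlapped. The log2 fold change was 0.31 ± 0.15 (edgeR adjusted p = 0.381, and 0.167 with the replicate block). Scaled to exon length, the ratio of Sec61g to Sec61a1 was 1.99, 1.52 and 1.70 in controls and 0.648, 0.490 and 1.00 with tunicamycin. The log2 ratio differed by -1.34 between groups (exact permutation test, two-sided p = 0.1, the smallest that 3 against 3 libraries allow, and 0.25 adjusted over 5 ratios computed). Dividing by exon length leaves in place the trend of the within-animal differences with exon length, described below. At the length of Sec61g that trend was -0.34, -0.50 and 0.17 on the log2 scale, and at that of Sec61a1 0.067, 0.12 and -0.062. Sec62, which serves entry after translation, stood at 389.8, 394.4 and 364.8 CPM in controls and 364.2, 261.9 and 383.8 CPM with tunicamycin. Its lowest value was the treated library of BW35772, and the log2 fold change was -0.19 ± 0.16 (edgeR adjusted p = 0.687). Sec61a2, a paralog of Sec61a1, had a log2 fold change of -0.075, and Sec63, which binds the chaperone BiP, had 0.13.

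**Figure D1:**
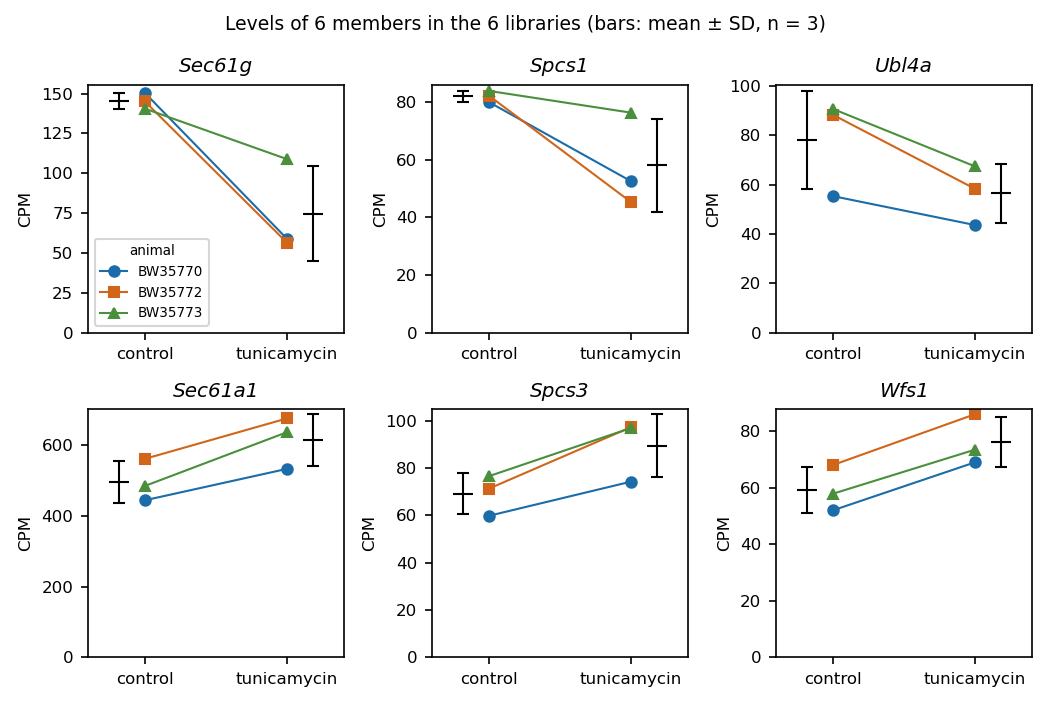
Level in CPM of 6 members in control and tunicamycin libraries, with a line joining the libraries of each animal and a bar for the mean ± SD of 3 libraries. Sec61g, Spcs1 and Ubl4a are lower and Sec61a1, Spcs3 and Wfs1 higher in the treated library of every animal, and for Sec61g the difference is smallest in animal BW35773 (140.5 to 108.8 CPM).

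Among the subunits of signal peptidase, the enzyme that cuts signal peptides off, the noncatalytic subunits Spcs1 and Spcs3 lay on opposite sides of 0. Spcs1 (scaffold KI615480.1, bases 4578904 to 4580442, minus strand, 669 exon bases) stood at 80.1, 82.3 and 84.0 CPM in controls and 52.6, 45.3 and 76.4 CPM with tunicamycin. The groups did not overlap, and the treated library of BW35773 was again the closest to controls. The log2 fold change was -0.50 ± 0.19 (edgeR adjusted p = 0.268, and 0.104 with the replicate block). Without the treated library of BW35773 it was -0.73 and was called (edgeR adjusted p = 0.0302), and over 21 settings the adjusted p ran from 0.017 to 0.70. Spcs3 (scaffold KI615324.1, bases 12412889 to 12422843, minus strand, 3578 exon bases) stood at 59.8, 71.2 and 76.5 CPM in controls and 74.2, 97.2 and 96.9 CPM with tunicamycin. Its log2 fold change was 0.37 ± 0.15 (edgeR adjusted p = 0.305, and 0.108 with the replicate block), and the groups overlapped at BW35770's treated library.

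Per exon length, Spcs1 exceeded Spcs3 by a ratio of 7.16, 6.18 and 5.87 in controls and 3.79, 2.49 and 4.22 with tunicamycin. The log2 ratio differed by -0.90 (exact permutation test, two-sided p = 0.1, again the smallest possible, and 0.25 adjusted over the 5 ratios). Spcs1 and Spcs3 had the lowest and highest log2 fold changes of the 5 subunits in these same libraries. Their ratio is therefore no separate evidence, and the test, which is not paired, could not pass 0.05. This ratio also keeps the trend with exon length. In the 3 animals the trend was -0.30, -0.43 and 0.15 at the length of Spcs1 and 0.074, 0.13 and -0.072 at that of Spcs3. The 2 catalytic subunits Sec11a and Sec11c had log2 fold changes of 0.049 ± 0.11 and -0.24 ± 0.19, and Spcs2, another accessory subunit, had 0.22 ± 0.13. None of the 5 subunits was called with or without the block.

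In the SRP group 4 members were tested and 0 were called with or without the block. Srp72, which binds the SRP RNA together with Srp68, stood at 161.7, 175.5 and 176.8 CPM in controls and 205.9, 185.7 and 179.8 CPM with tunicamycin. The groups did not overlap, but the highest control and the lowest treated library were close, and the log2 fold change was 0.15 ± 0.11 (edgeR adjusted p = 0.599). Srp9, part of the domain that slows elongation, stood at 45.0, 39.1 and 35.4 CPM in controls and 31.9, 28.1 and 45.2 CPM with tunicamycin. Treated libraries were lower in animals BW35770 and BW35772 and higher in BW35773, and the log2 fold change was -0.18 ± 0.20 (edgeR adjusted p = 0.761). Srp68 and Srpr, the alpha subunit of the receptor, had log2 fold changes of -0.0054 ± 0.10 and 0.076 ± 0.11.

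TRAP, a complex beside the channel that assists some signal sequences, had 3 tested subunits, with log2 fold changes of 0.14 (Ssr1), 0.24 (Ssr2) and 0.067 (Ssr4). None was called with or without the block. Ssr2, the beta subunit, stood at 229.6, 274.5 and 254.1 CPM in controls and 275.3, 257.0 and 364.7 CPM with tunicamycin. The value of 364.7 CPM in animal BW35773 was the highest, and the groups overlapped (edgeR adjusted p = 0.559). Ssr1, the alpha subunit, stood at 84.7, 94.9 and 87.5 CPM in controls and 88.4, 100.3 and 105.7 CPM with tunicamycin, higher in each animal (edgeR adjusted p = 0.664).

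Of the 5 other proteins at the channel or in the ER, Hspa13 and Wfs1 had the largest positive differences. Wfs1 encodes wolframin, an ER membrane glycoprotein (scaffold KI615576.1, bases 2814494 to 2838892, minus strand, 3589 exon bases). It stood at 51.9, 67.9 and 57.8 CPM in controls and 68.9, 85.9 and 73.4 CPM with tunicamycin. The groups did not overlap, although the highest control and the lowest treated library were 67.9 and 68.9 CPM. Within animals the differences were 0.41, 0.34 and 0.34 on the log2 scale, the most even of the larger differences. The log2 fold change was 0.36 ± 0.15 (edgeR adjusted p = 0.288, and 0.111 with the replicate block). Hspa13, an HSP70-like protein of microsomes also named STCH, stood at 80.1, 63.2 and 70.4 CPM in controls and 80.7, 96.4 and 90.3 CPM with tunicamycin. Its log2 fold change was 0.32 ± 0.13 (edgeR adjusted p = 0.296), and in animal BW35770 the libraries differed by 0.011. Serp1, also named RAMP4 and known as a stress-associated partner of Sec61, had 0.076 ± 0.13. Tram1, a membrane protein next to the channel, had -0.013 ± 0.15.

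In the GET pathway Bag6, Ubl4a and Get4 form the complex that receives tail-anchored proteins in the cytosol, Asna1 is the ATPase that carries them and Wrb a part of the receptor. Ubl4a (scaffold KI615911.1, bases 279789 to 282664, plus strand, 2356 exon bases) stood at 55.4, 88.4 and 90.8 CPM in controls and 43.6, 58.3 and 67.4 CPM with tunicamycin. Each treated library was below its own control, but the groups overlapped because animal BW35770 was low in both conditions. The log2 fold change was -0.47 ± 0.23 (edgeR adjusted p = 0.396) and -0.46 ± 0.12 with the replicate block (edgeR adjusted p = 0.072). Bag6 stood at 515.7, 549.2 and 479.9 CPM in controls and 511.5, 497.7 and 427.5 CPM with tunicamycin, and the log2 fold change was -0.10 ± 0.13 (edgeR adjusted p = 0.797). Get4, Asna1 and Wrb had log2 fold changes between -0.056 and 0.065.

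The 6 EMC subunits among the members all had negative log2 fold changes, from -0.32 to -0.033, and none was called with or without the block. The EMC subunits Emc8, Emc9 and Mmgt1 are not members and are counted below with the other insertion factors. Their log2 fold changes were 0.0055, -0.031 and -0.17. Of all tested genes 51.5% had negative values. With the length trend removed by offsets in the fit 4 of the 6 EMC members were negative and 2 positive, Emc6 at 0.10 and Emc7 at 0.0028. Emc2, which joins the cytosolic part of the complex, stood at 96.1, 123.5 and 116.7 CPM in controls and 66.8, 84.5 and 119.0 CPM with tunicamycin (log2 fold change -0.32 ± 0.22, edgeR adjusted p = 0.574). Emc4, a membrane subunit, stood at 93.5, 86.6 and 74.9 CPM in controls and 71.1, 62.4 and 79.5 CPM with tunicamycin (log2 fold change -0.26 ± 0.14, edgeR adjusted p = 0.438). In both genes the treated library was lower in animals BW35770 and BW35772 and slightly higher in BW35773. Treated libraries were above control for 0 of the 6 EMC members in BW35770, 1 in BW35772 and 5 in BW35773. Over all 13503 tested genes the matching counts were 6283, 6430 and 6669.

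**Figure D2:**
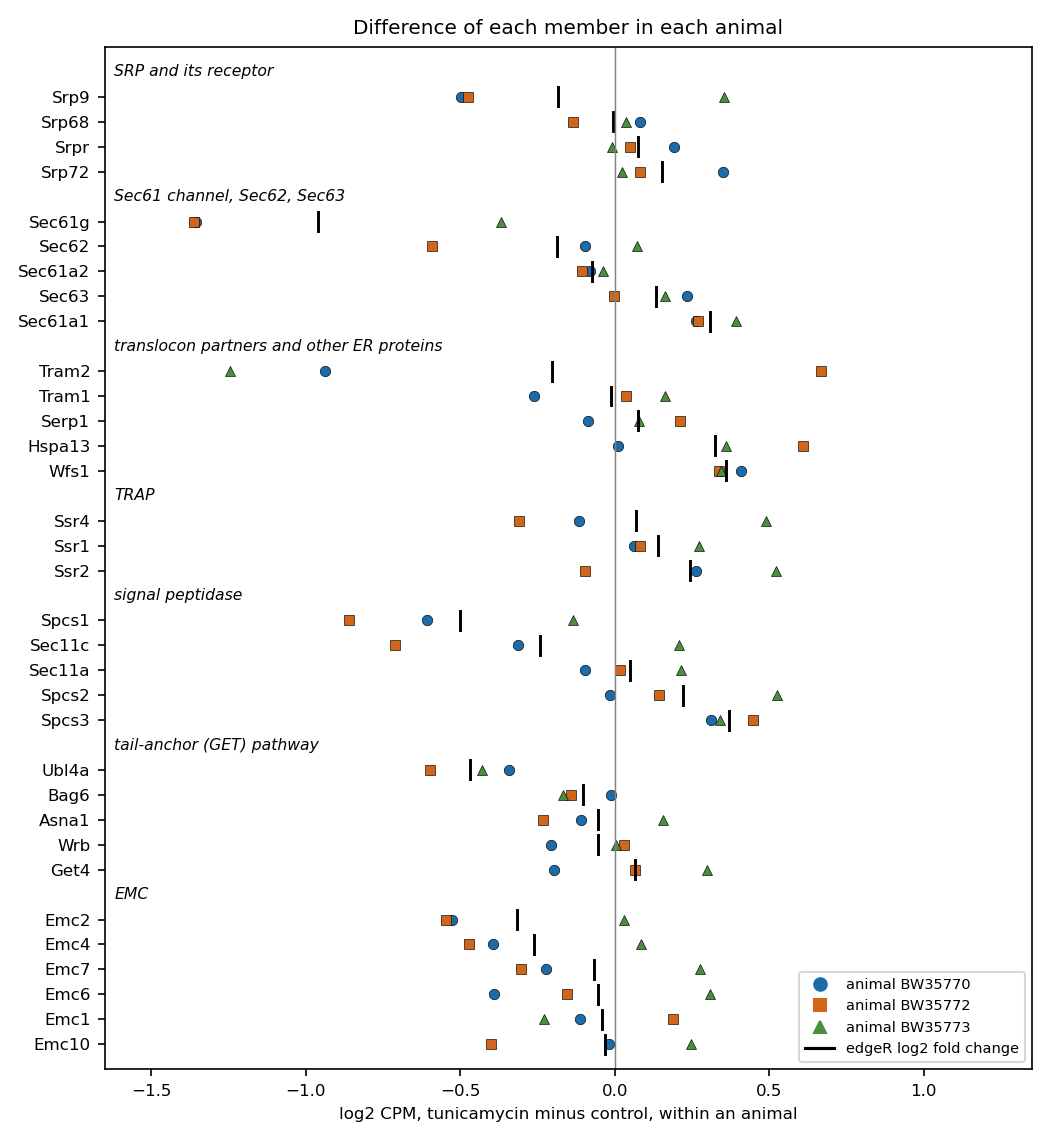
Difference in log2 CPM between the tunicamycin and the control library of each animal (coloured points) for the 33 members, grouped by role, with the edgeR log2 fold change as a black tick. Sec61g is far to the left in BW35770 and BW35772, and points of BW35773 lie to the right of 0 for 25 of 33 members.

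The direction of the members differed between animals. Treated libraries were above control for 10 of 33 members in BW35770, 15 in BW35772 and 25 in BW35773, with median log2 differences of -0.098, -0.095 and 0.16. Over all tested genes the medians were -0.034, -0.029 and -0.0045, with 6283, 6430 and 6669 of 13503 genes above control. Across animals 6 members were higher in all 3 pairs (Srp72, Sec61a1, Hspa13, Wfs1, Ssr1 and Spcs3) and 5 were lower (Sec61a2, Sec61g, Spcs1, Bag6 and Ubl4a), where 20.7% of all tested genes were higher and 21.7% lower in all 3 pairs. The groups of 3 libraries did not overlap for 5 members (Srp72, Sec61g, Hspa13, Wfs1 and Spcs1), where 22.3% of all tested genes did not overlap. These shares are near the background.

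Exon length moved with these differences. Tested genes were split by exon length into 5 classes of nearly equal size. In the shortest class (57 to 1089 exon bases) the median log2 difference was -0.27 in BW35770, -0.41 in BW35772 and 0.14 in BW35773. In the longest class (3766 to 24148 bases) it was 0.12, 0.17 and -0.17, so the trend of animal BW35773 ran opposite to the others. The 7 members in that shortest class (Sec11a, Sec61g, Spcs1, Emc6, Sec11c, Ssr4 and Ssr1) had medians of -0.31, -0.31 and 0.21. Across the 33 members, which share the same libraries, Spearman's rho of the difference with exon length was 0.61, 0.53 and -0.076, and across all tested genes 0.28, 0.33 and -0.23.

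**Figure D3:**
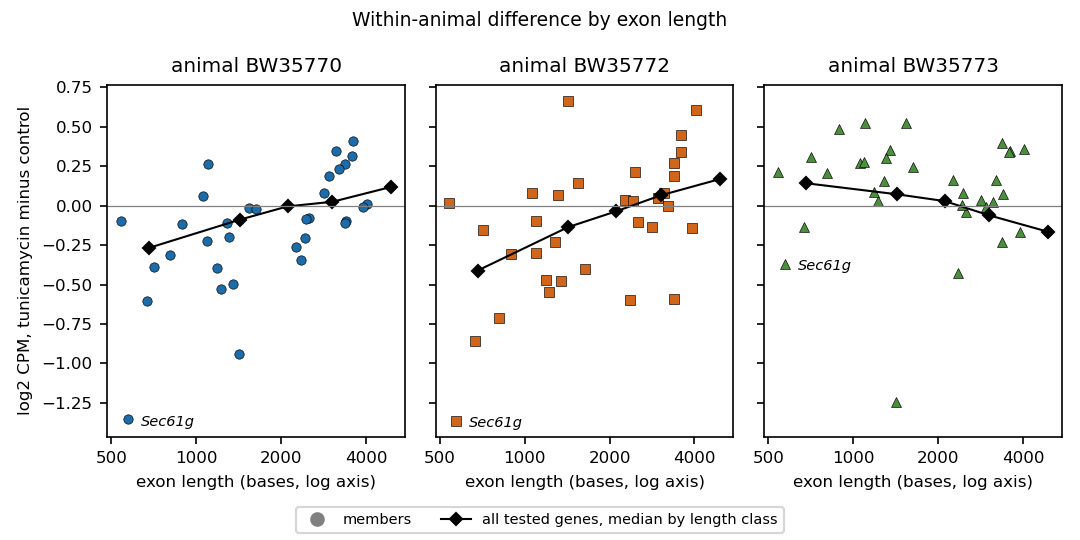
Difference in log2 CPM between the tunicamycin and control library of each animal against exon length, for the 33 members (coloured points) and as the median of all tested genes in each of the 5 classes by exon length (black diamonds). The black line slopes up in BW35770 and BW35772 and down in BW35773, and Sec61g lies below it in all 3 animals.

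Each library's trend with exon length was then removed (a lowess curve used as offsets in the same fit). At the length of Sec61g the trend was -0.34, -0.50 and 0.17 in the 3 animals, and Sec61g lay a further 1.02, 0.86 and 0.54 below it. In that fit its log2 fold change was -0.79, and it was called without the block (edgeR adjusted p = 0.0216) and with it (0.0026). It was the 1 member called lower without the block, and 0 were called higher, where 1.47% of all tested genes were called lower and 2.22% higher. Sec11a, with 540 exon bases the shortest member, lay 0.25, 0.54 and 0.04 above the trend and was not called. Spcs1 lay below the trend in each animal and its log2 fold change was then -0.34, which was not called (edgeR adjusted p = 0.133 unblocked and 0.063 blocked). Ubl4a, whose length is near the middle of the range, had -0.50 without the block and -0.49 with it, and only the latter was called (edgeR adjusted p = 0.329 and 0.018, and over 21 settings 0.018 to 0.82). With the trend subtracted, members above control numbered 13, 14 and 24 of 33 in the 3 animals. The matching counts over all tested genes were not computed. Members higher in all 3 pairs then numbered 7, and 7 were lower, where 21.6% of all tested genes were higher and 23.9% lower. With both the length offsets and the replicate block 2 members were called lower and 0 higher, where 5.57% of all genes were called lower and 5.39% higher.

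Levels differed more between members than between conditions. Per kilobase of exon, Sec61g had the highest control level, at 253.6 ± 8.63 CPM per kb (SD, n = 3), followed by Ssr2 at 229.7 ± 20.5 and Ssr4 at 212.0 ± 7.48. The control values of neighbours in this order overlapped, Sec61g with Ssr2 and Ssr2 with Ssr4. With tunicamycin the mean of Sec61g was 130.3 ± 51.7 CPM per kb, below the means of Ssr2, Ssr4, Sec11a, Sec61a1, Emc10 and Spcs2. The lowest control levels were those of Tram2, a relative of Tram1, at 3.10 ± 0.84, Wrb at 9.01 ± 0.80 and Sec61a2 at 13.5 ± 0.53 CPM per kb, which did not overlap each other. Exons of Srpr, Serp1 and Ssr4 overlap those of a gene on the opposite strand (Fam118b, Eif2a and Idh3g), so their levels depend on strand having been used in counting, which the title of the deposited table states.

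**Figure D4:**
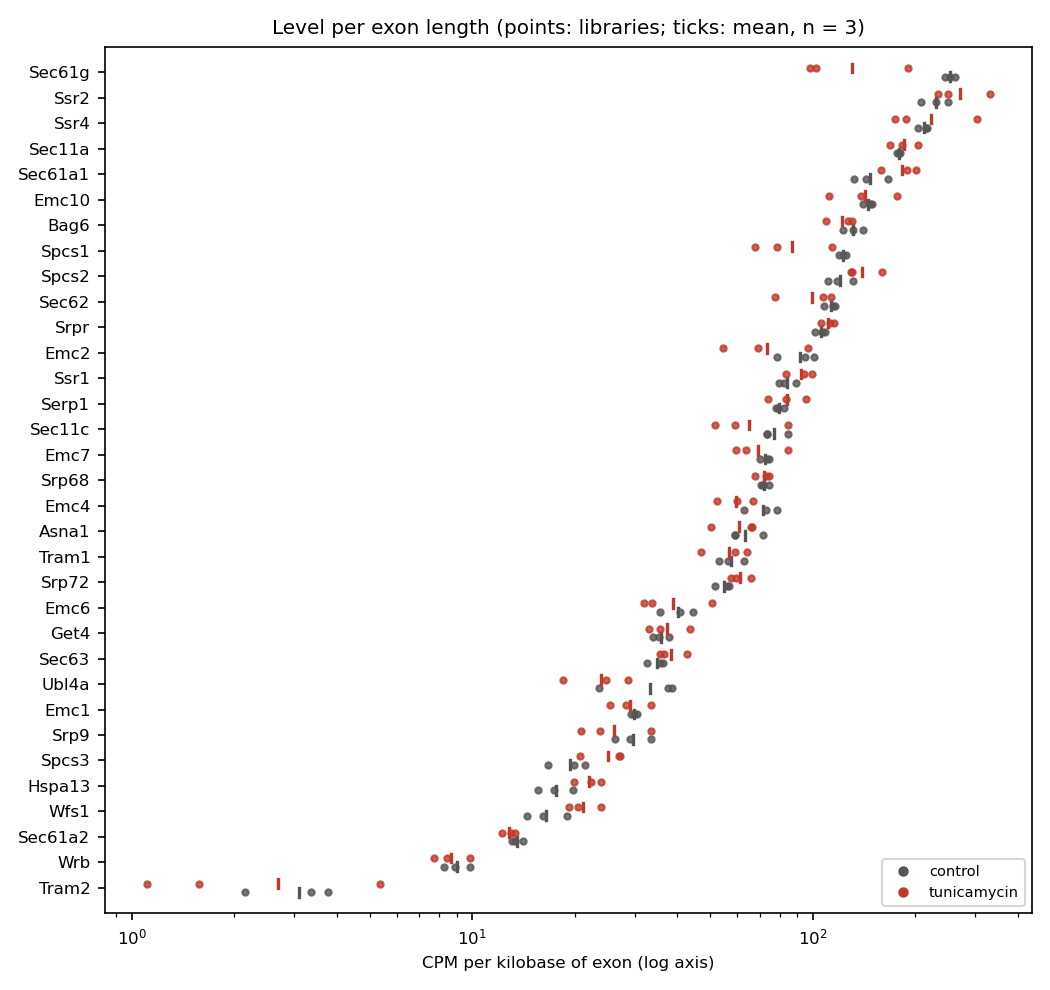
Level of each member in CPM per kilobase of exon (log axis), with 1 point per library and a tick for the mean of 3 libraries, in control (grey) and tunicamycin (red). Members are ordered by control level, from Tram2 (3.10) to Sec61g (253.6), and the groups of Sec61g are separate.

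The animal term of the blocked fit asked whether members differed between the cultures irrespective of treatment. Of 33 members 0 were called (edgeR F test, adjusted p under 0.05), where 3.53% of all tested genes were called. Before adjustment 3 had a p under 0.05, namely Tram2, Ubl4a and Emc2, where 15.5% of all tested genes did. Ubl4a had the smallest value (edgeR adjusted p = 0.0898), with both libraries of BW35770 (55.4 and 43.6 CPM) below every library of the others (58.3 to 90.8 CPM). With the length trend removed Ubl4a was called (edgeR adjusted p = 0.0209). The share of all tested genes called in that fit is not given here, so this call has no background to compare with. The summed chondrocyte markers were also lowest in both libraries of BW35770, and their part in this difference was not tested.

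Other genes that work with this machinery were taken from a list of 41, of which 29 were in the table and 28 were tested. Of these 28 genes 3 rose and 0 fell, with and without the block. Of all tested genes 1.78% rose and 0.792% fell without the block, and 3.07% rose and 2.4% fell with it. Hspa5, the chaperone BiP that seals and pulls at the channel from the ER side, stood at 1327, 1759 and 1443 CPM in controls and 4250, 3983 and 4334 CPM with tunicamycin (log2 fold change 1.47 ± 0.16, edgeR adjusted p = 0.0051). Hyou1, which exchanges nucleotide on BiP, rose by 0.80 ± 0.12 on the log2 scale, and Dnajc3, a BiP co-chaperone, by 0.76 ± 0.12 (edgeR adjusted p = 0.0211 each). Of the 11 tested subunits of oligosaccharyltransferase, the enzyme that attaches N-glycans at the channel, 0 rose and 0 fell, and their median log2 fold change was -0.070. Among 10 other insertion factors 0 rose and 0 fell, with a median of -0.18. They included Tmco1, Ncln, Sgta and the EMC subunits Emc8, Emc9 and Mmgt1. Before adjustment, edgeR gave p under 0.05 to 0 oligosaccharyltransferase subunits, and to 0 higher and 1 lower of the insertion factors. By that rule 8.88% of all tested genes were higher and 6.64% lower. In DESeq2 and limma-voom the same 3 genes of the 28 (Hspa5, Hyou1 and Dnajc3) were called higher and 0 lower. Of all tested genes DESeq2 called 4.93% higher and 2.88% lower, and limma-voom 1.61% and 0.77%. Leaving out the control library of BW35773 ended the call of Hspa5 (edgeR adjusted p = 0.056), and without animal BW35770 the 3 genes had blocked adjusted p-values of 0.058 (Hspa5), 0.14 (Hyou1) and 0.18 (Dnajc3). Whether the members and these 3 genes differ in response was not tested.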

How the data were processed

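The authors deposited a table of raw read counts, 1 column for each library, with the exon length of every gene. Per the submitters' processing notes, alignment used STAR 2.6.1 and SAMtools 1.6, and counting used featureCounts of Subread. Build, annotation release and the handling of multi-mapping reads were not given in the sources used here, so members with near-identical copies elsewhere may gain or lose reads. Coordinates are those of the deposited table.

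The fit used edgeR 4.0.16 (R 4.3.3). Genes passed filterByExpr (minimum count 10, minimum total 15), were scaled by TMM and tested with glmQLFit and glmQLFTest, two-sided, with p-values adjusted over 13503 genes. Standard errors are the fold change divided by the square root of F. Differences within an animal use log2 CPM with a prior count of 2. Lowess curves on log2 exon length had a span of 0.3 and were fitted to each gene's departure from its mean log2 CPM over all 6 libraries. That mean covers both groups, so the offsets also remove any treatment effect that follows exon length. Alternatives were the replicate block, other scalings and filters, DESeq2 1.42.0, limma-voom (limma 3.58.1), length offsets, and leaving out each library or animal. The edgeR fits with and without the block and length offsets, and the test of the animal term, were run on simulated data. The other alternatives and the permutation tests were not.

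Libraries with the same number come from the same animal. Their departures from the group mean had correlations of 0.66, 0.41 and 0.22 over genes. The lowest chi-square per degree of freedom between libraries was 27.0, so none was a copy. Unblocked p-values reflect the variation among the 3 libraries of each group and do not use the pairing. Blocked p-values reflect how the treatment difference varied among cultures of 3 animals. The members and lists were chosen with earlier results of these data known. Values in every library are given for members called in either fit and for the 2 of smallest p in each role. They are also given for Sec62 and Tram2, which meet neither condition.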

Additional observations from a re-analysis of the deposited data

How the results depend on the processing

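No member was called higher under any of 21 alternatives. The count called lower, 0 in the unblocked edgeR fit, was 1 with the replicate block, 1 in DESeq2 and 1 with length offsets (Sec61g each time). It was 2 with length offsets and the block (Sec61g and Ubl4a) and 0 to 2 with single libraries left out. With the block it was 2 without animal BW35772 (Sec61g and Tram2) and 3 without animal BW35773 (Sec61g, Spcs1 and Emc2). Of all tested genes 2.4% were called lower with the block, 2.88% in DESeq2, 1.47% with length offsets and 5.57% with offsets and block. The blocked fits without BW35772 and without BW35773 called 451 and 826 of all tested genes lower. Members that differed between animals numbered 1 with length offsets and the block (Ubl4a), with no matching share of all tested genes given here. Related genes called higher, 3 in the unblocked fit, numbered 0 to 3 with single libraries left out. They numbered 0 without animal BW35770, BW35772 or BW35773 in unblocked fits, and 0 without BW35770 in the blocked fit. Related genes called lower, 0 in the unblocked fit, numbered 1 with length offsets and the block (Ckap4), 1 with the block without BW35772 (Ckap4) and 3 with the block without BW35773 (Tmco1, Wdr83os and Tmem258). The cause of these shifts was not tested. The 14 members called in either fit, or among the 2 of smallest p in their role, kept their sign in all 21 alternatives. Other members did not all do so. Emc6 and Emc7 were negative in the unblocked fit and positive with length offsets.

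Over all tested genes 241 rose and 107 fell in the unblocked fit. The counts were 415 and 324 with the replicate block, 666 and 389 in DESeq2, 300 and 199 with length offsets, and 728 and 752 with both. They ran from 46 to 313 and from 15 to 251 with single libraries left out. Without BW35770, BW35772 or BW35773 they were 39 and 21, 31 and 9, and 20 and 3, or 74 and 37, 497 and 451, and 806 and 826 with the block. For 12 of 33 members the 95% interval reached past 1.5-fold, so smaller differences could not be resolved in 3 animals.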

Other observations

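Paralogs within the group had unequal levels. Per exon length, Sec11c stood at 0.409, 0.468 and 0.415 of Sec11a in the controls of BW35770, BW35772 and BW35773, and at 0.352, 0.282 and 0.414 with tunicamycin. Sec61a2 stood at 0.107, 0.079 and 0.093 of Sec61a1 in controls and at 0.085, 0.061 and 0.069 with tunicamycin, lower in each animal. Within animals the log2 ratio of Sec61a2 to Sec61a1 differed by -0.34, -0.37 and -0.43, and that of Sec11c to Sec11a by -0.22, -0.73 and -0.0046. The trend with exon length was not removed from either ratio. The exact permutation test between groups (two-sided, not paired) gave p = 0.2 for each, 0.25 adjusted over 5 ratios. The smallest p that 3 against 3 libraries allow is 0.1, so this test could not pass 0.05 at any difference. How the authors' counting split reads between these paralogs was not given in the sources used here.

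Tram2, the member of lowest level, had the widest spread. It stood at 3.07, 4.80 and 5.38 CPM in controls and at 1.58, 7.64 and 2.24 CPM with tunicamycin, in the same order of animals. The log2 differences within animals were -0.94, 0.67 and -1.24. Its log2 fold change was -0.20 ± 0.58 (edgeR adjusted p = 0.926), and its 95% interval ran from -1.56 to 1.15.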
